A study of Homo sapiens with 10 samples.

Results

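TCF3, TCF4 and TCF12, which encode the E proteins, and ID1, ID2, ID3 and ID4, which encode their antagonists, are 7 of the 26346 genes in the deposited transcript tables of EndoC-βH1 cells with and without SRp55. EndoC-βH1 is a clonal human cell line that makes insulin. SRp55, encoded by SRSF6, is an SR protein that binds RNA and regulates splicing. TCF3 was taken because earlier results of these libraries showed a change in its transcripts between the groups, so all its values in that contrast are given as a description, with no test. The other 6 genes were added for their place in the same protein network. They were matched by Ensembl gene identifier, and all 7 were found.

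The control group was EndoC-βH1 cells given control siRNA, and the other group was the same cells given the SRp55 siRNA siSR#2. Each group held 5 libraries of polyA RNA, numbered 1 to 5, from cells grown on plates coated with matrigel and fibronectin, and the numbers refer to independent preparations. One clonal line and 1 siRNA against SRp55 were used, so an effect of the loss of SRp55 and an effect of that siRNA on other targets cannot be told apart. The cells carried no other treatment in the labels.

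E proteins are basic helix-loop-helix (bHLH) transcription factors that bind the E-box motif as homodimers, or as heterodimers with tissue-restricted bHLH factors such as NEUROD1 and NEUROG3 in the endocrine pancreas. ID factors have the helix-loop-helix part but no basic region, so they pair with E proteins and keep them from DNA. TCF3 yields the proteins E12 and E47, which differ in the exon that encodes the bHLH domain, and a transcript uses one of these exons or the other. In beta cells, E47 with NEUROD1 is known for binding the insulin promoter.

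The files gave 61.9 to 189.8 M reads assigned to transcripts per library. Levels are gene sums of transcript RPKM, reads per kilobase of transcript and per 1000000 reads, and the same genes were also summed as estimated reads per 1000000 assigned reads (RPM), which does not divide by transcript length. The siRNA target SRSF6 stood at 92.4 to 100 RPKM in control and 21.0 to 31.1 RPKM after SRp55 siRNA, a log2 fold change of -2.08 relative to the median tested gene (limma, adjusted p = 2.0e-05). Of 13630 genes tested, 684 (5.02%) passed a Benjamini-Hochberg adjusted p of 0.05 in limma, 513 higher (3.76%) and 171 lower (1.25%) with SRp55 siRNA, and median-of-ratios scaling turned that split to 412 higher (3.02%) and 507 lower (3.72%), 6.75% in all. With the replicate number as a block, 13.1% were called, 9.39% higher and 3.70% lower, and by summed reads 17.2%. Leaving out 1 library moved the count from 259 (without control replicate 2) to 1083 (without control replicate 4). The median tested gene was 0.11 higher on the log2 scale as deposited, and the log2 fold changes here are relative to it. The adjusted p printed beside them tests the change as deposited, before that shift. The 10 beta cell markers were all tested and summed to 12811 to 24916 RPKM in control and 18329 to 28398 RPKM after SRp55 siRNA, sums in which INS and CHGA weigh most. Markers of other islet cells summed to 64.9 to 253 and 56 to 210 RPKM, with PPY at 0. Acinar and duct markers summed to 36.5 to 53.8 and 41.7 to 97.8 RPKM, with PRSS1, CELA3A and PNLIP at 0. Mesenchymal, endothelial and immune markers summed to 34.3 to 51 and 31.3 to 52.2 RPKM, with CDH5 and CD3E at 0. In bulk RNA, fewer cells of a type and less RNA per cell cannot be told apart.

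TCF3 (ENSG00000071564, GRCh37 chr19:1609291-1652604, minus strand) is the gene whose transcripts differed most in make-up among the 7, a rank that follows from how it was chosen. The 2 alternative exons are exon 18a of E12 (236 bases) and exon 18b of E47 (227 bases), the latter at GRCh38 chr19:1612207-1612433 on the minus strand in GENCODE 44. Exon 18b is shown because the transcript that carried most of TCF3 in control libraries holds it together with part of 18a. Capitals mark its first 3 bases.
exon 18b of E47: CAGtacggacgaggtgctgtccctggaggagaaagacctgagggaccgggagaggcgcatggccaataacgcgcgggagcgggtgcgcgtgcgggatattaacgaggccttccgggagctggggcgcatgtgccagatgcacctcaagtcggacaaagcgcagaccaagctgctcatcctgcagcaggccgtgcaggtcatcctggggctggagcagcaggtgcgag

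Exon 17 joins 18a in the E12 transcript ENST00000262965 and 18b in the E47 transcript ENST00000588136, and either one then joins the same downstream base. In ENST00000262965 that base starts the last exon. In ENST00000588136 and ENST00000592395 an intron divides the region that starts there, and the label below calls the whole region the last exon. Another E12 transcript, ENST00000395423, keeps the intron between exon 17 and 18a. In ENST00000592395, exon 17 joins 18a at a point 35 bases further in, and 18a then joins 18b. The junctions of exon 18b in E47 are shown because the first is absent from ENST00000592395 and the other is shared with it. Each is printed as 15 bases of the upstream exon in lower case and 15 bases of the downstream exon in capitals.
exon 17 to exon 18b in E47: ccgggcccggaccagCAGTACGGACGAGGT
exon 18b to last exon in E47: agcagcaggtgcgagAGCGGAACCTGAATC

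ENST00000592395 (GRCh37 chr19:1609291-1615797, 995 bases in the files) is annotated as a nonsense-mediated decay transcript, a class of RNA whose early stop codon marks it for degradation during translation. None of its 4 splice junctions is its own. The junction from 18a to 18b is shared with ENST00000585855, the one into the shortened 18a with ENST00000586164, and the 2104-base intron in the last exon with ENST00000587425. Only 1 of its 996 GENCODE bases lies outside the exons of other TCF3 transcripts. Its values are therefore an estimate that divides shared reads among 18 TCF3 transcripts, and the files hold no junction counts that were used here.

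**Figure D1:**
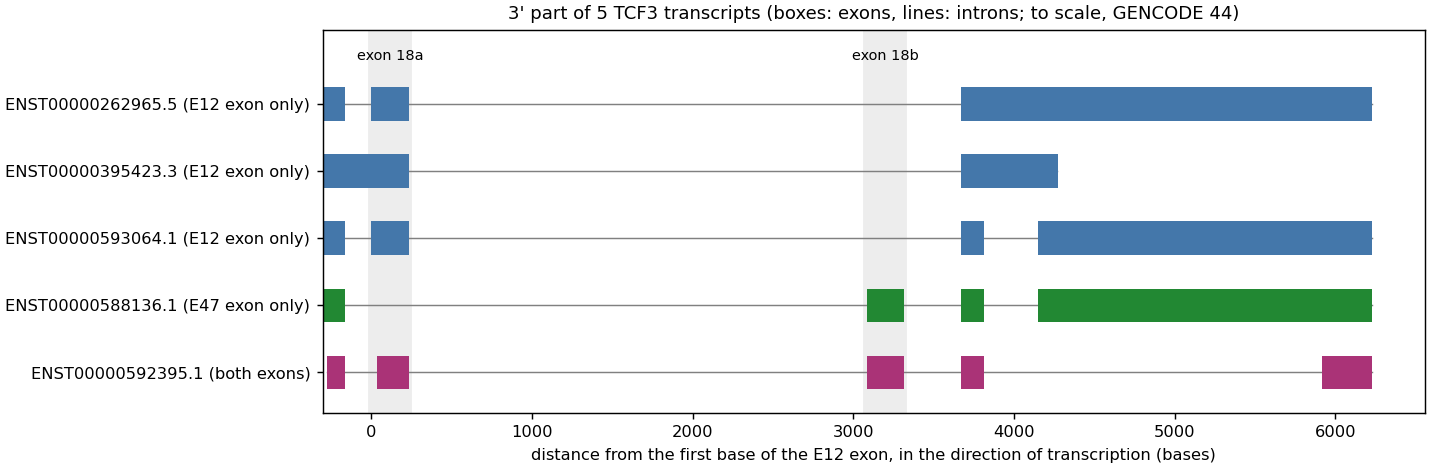
The 3′ part of 5 TCF3 transcripts drawn to scale, with boxes for exons, lines for introns and the distance from the first base of exon 18a on the x axis in bases. The coding transcripts hold exon 18a or exon 18b, and ENST00000592395 holds a shortened 18a and all 227 bases of 18b.

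In control libraries 1 to 5, ENST00000592395 was at 24.1, 16.3, 15.5, 32.2 and 12.6 RPKM. With SRp55 siRNA it was at 0.47, 0.33, 0, 3.03 and 2.48 RPKM. The groups lay far apart: the highest SRp55 siRNA library, replicate 4, was below the lowest control library, replicate 5. The estimated reads behind these values were 2819, 1287, 2241, 5607 and 2290 in control and 57, 47, 0, 632 and 376 in SRp55 siRNA libraries. SRp55 siRNA replicates 4 and 5 kept more of this transcript than replicates 1 to 3, and both also had reads for ENST00000585855, the other transcript that joins 18a to 18b, which was at 0 in the remaining 8 libraries.

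Transcripts that hold both exons made up 77.2% ± 4.69 (SD, n = 5) of TCF3 RPKM in control and 7.97% ± 8.63 (SD, n = 5) in SRp55 siRNA libraries, a difference of -69.3 percentage points. By estimated reads, which are not divided by transcript length, the share went from 56.3% ± 8.59 to 3.07% ± 3.37, a difference of -53.2 points. The lowest control share by reads was 41.1% in replicate 5, and the highest SRp55 siRNA share was 6.81% in replicate 4. Leaving out any 1 library kept the difference by RPKM between -71.9 and -67.3 points.

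The rest of TCF3 was spread over both coding forms. Transcripts with exon 18a alone went from 9.76% ± 3.38 to 36.8% ± 8.79 of TCF3 RPKM, and those with exon 18b alone from 7.46% ± 4.87 to 29.5% ± 7.63 (SD, n = 5 each). Another 6 transcripts, whose structure in the files could not be matched to GENCODE 44, went from 5.39% ± 0.969 to 25.1% ± 3.28. GENCODE gives 4 of these 6 the exon 18b and the other 2 neither exon. In none of these 3 classes did the shares of the groups overlap by RPKM. By estimated reads the exon 18a class overlapped, at 8.15% to 26% in control and 17.3% to 45.3% with SRp55 siRNA. The exon 18b class and the unmatched transcripts stayed apart. All classes add up to the whole gene, so a lower share of one raises the shares of the others.

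**Figure D2:**
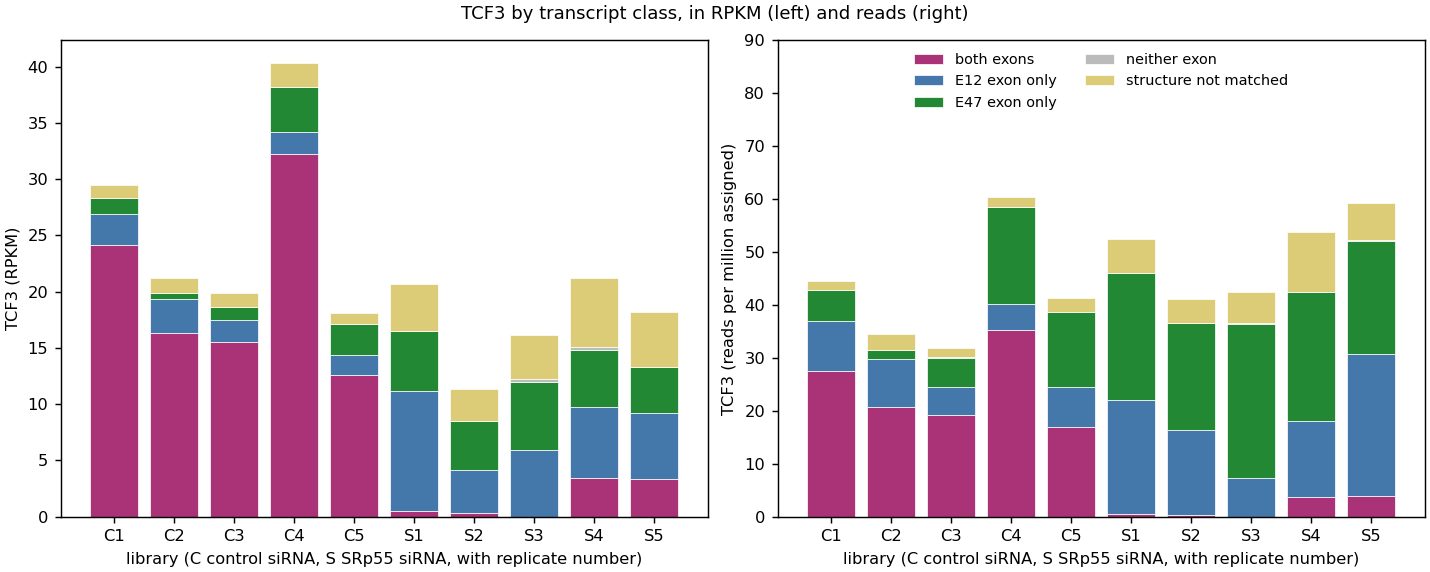
TCF3 in each library split by transcript class, in RPKM on the left and in RPM on the right. Transcripts with both exons fill most of each control bar by RPKM (69.6% to 81.8%) and between 0 and 18.3% of the SRp55 siRNA bars.

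The balance of E12 to E47 differed little beside that. E12 transcripts made up 67.2%, 86.3%, 62.9%, 33.4% and 40.5% of E12 plus E47 RPKM in control libraries 1 to 5, and 66.9%, 47.1%, 49.3%, 55.3% and 59.3% with SRp55 siRNA. The SRp55 siRNA values all lay inside the control range. The means were 58.0% ± 21.3 and 55.6% ± 7.95 (SD, n = 5), a difference of -2.49 points, which moved between -8.64 and 4.58 points as single libraries were left out. Without control replicate 2 it became 4.58 points, and no direction is read from it. By estimated reads the means were 50.2% ± 24.1 and 40.9% ± 13.3. With the unmatched transcripts classed by their GENCODE exons, the E12 share by RPKM was 49.9% ± 18 and 43.9% ± 7.42, a difference of -6.01 points.

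Among single coding transcripts, the full-length E47 transcript ENST00000344749 was at 0.878, 0.0561, 0.766, 3.48 and 1.89 RPKM in control and 5.13, 3.24, 5.06, 4.75 and 3.25 RPKM after SRp55 siRNA. Only control replicate 4 reached into the SRp55 siRNA range. The full-length E12 transcript ENST00000262965 was listed at 0 in control replicates 3 and 4 and in SRp55 siRNA replicate 3, and reached 0.749 RPKM in the other control libraries and 2.97 RPKM with SRp55 siRNA. ENST00000395423, an E12 transcript that keeps the 165-base intron before exon 18a, was at 1.04 to 1.78 RPKM in control and 0.303 to 3.66 RPKM after SRp55 siRNA, so the groups overlapped. ENST00000593064, a short E12 transcript of 1020 bases, took 1.51% ± 1.66 of TCF3 RPKM in control and 13.1% ± 8.80 with SRp55 siRNA.

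The 2 gene sums of TCF3 differed in direction. The sum in RPKM was 29.4, 21.2, 19.8, 40.3 and 18.2 in control and 20.7, 11.4, 16.2, 21.2 and 18.2 in SRp55 siRNA libraries, a mean of 25.8 ± 9.20 against 17.5 ± 3.98 (SD, n = 5). The groups overlapped, and in 0 of 5 replicate pairs was the SRp55 siRNA library higher. In RPM the means were 42.6 ± 11.3 and 49.8 ± 7.79, and the SRp55 siRNA library was higher in 4 of 5 pairs. The log2 fold change relative to the median gene was -0.62 by RPKM and 0.26 by reads, so no direction is given for TCF3 as a gene. With the transcripts that hold both exons left out, TCF3 was at 5.34, 4.91, 4.34, 8.12 and 5.53 RPKM in control and 20.2, 11.1, 16.2, 17.8 and 14.9 RPKM after SRp55 siRNA. That remainder was higher in every SRp55 siRNA library than in any control library, in RPKM (5.65 ± 1.45 against 16.0 ± 3.41) and in RPM (18.6 ± 5.89 against 48.1 ± 6.29).

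TCF4 (ENSG00000196628, GRCh37 chr18:52889562-53332018, minus strand) encodes E2-2, the E protein known for its role in plasmacytoid dendritic cells and neurons, and was the least abundant of the 7. It was at 2.24, 2.23, 2.41, 2.68 and 1.94 RPKM in control and 5.21, 4.37, 6.73, 3.56 and 3.78 RPKM after SRp55 siRNA. The groups did not overlap, and the SRp55 siRNA library was higher in 5 of 5 pairs. TCF4 rose by 0.77 on the log2 scale relative to the median gene (SE 0.16, 95% interval 0.41 to 1.12, limma with Benjamini-Hochberg adjustment, adjusted p = 0.015). In RPM it went from 10.6 ± 0.840 to 22.0 ± 2.19 (SD, n = 5), again without overlap, a log2 fold change of 1.03 (limma, adjusted p = 5.4e-05). It passed in each of the 17 alternatives that were run, with adjusted p from 5.4e-05 to 0.044.

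TCF12 (ENSG00000140262, GRCh37 chr15:57210821-57591479, plus strand) encodes HEB, the E protein best known from developing T cells and muscle. It was at 18.5, 21.8, 17.6, 21.6 and 19.6 RPKM in control and 34.1, 26.6, 24.9, 26.9 and 27.9 RPKM after SRp55 siRNA. Here too the groups did not overlap and 5 of 5 pairs were higher with SRp55 siRNA. TCF12 rose by 0.38 on the log2 scale relative to the median gene (SE 0.11, 95% interval 0.13 to 0.62, limma with Benjamini-Hochberg adjustment, adjusted p = 0.035). That p belongs to the larger change as deposited, 0.49. In RPM the groups overlapped, at 65.9 ± 8.98 and 85.0 ± 10.5, with a log2 fold change of 0.38 and an adjusted p of 0.038 in limma. The call was close to the threshold: median-of-ratios scaling ended it (limma, adjusted p = 0.063), and in 8 of the 10 fits that left out 1 library it missed, with adjusted p up to 0.084, and passed without control replicate 4 or SRp55 siRNA replicate 5. With the replicate number as a block TCF12 passed (limma, adjusted p = 0.032).

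Of the 6 genes other than TCF3, 2 were called higher and 0 lower, beside 3.76% and 1.25% of all tested genes. The same 2 were the genes whose groups did not overlap in RPKM, beside 5.61% of tested genes with every SRp55 siRNA library above every control library and 2.32% with the reverse. In RPM 1 of the 6, TCF4, did not overlap, beside 5.60% of tested genes separated upward and 8.21% downward.

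**Figure D3:**
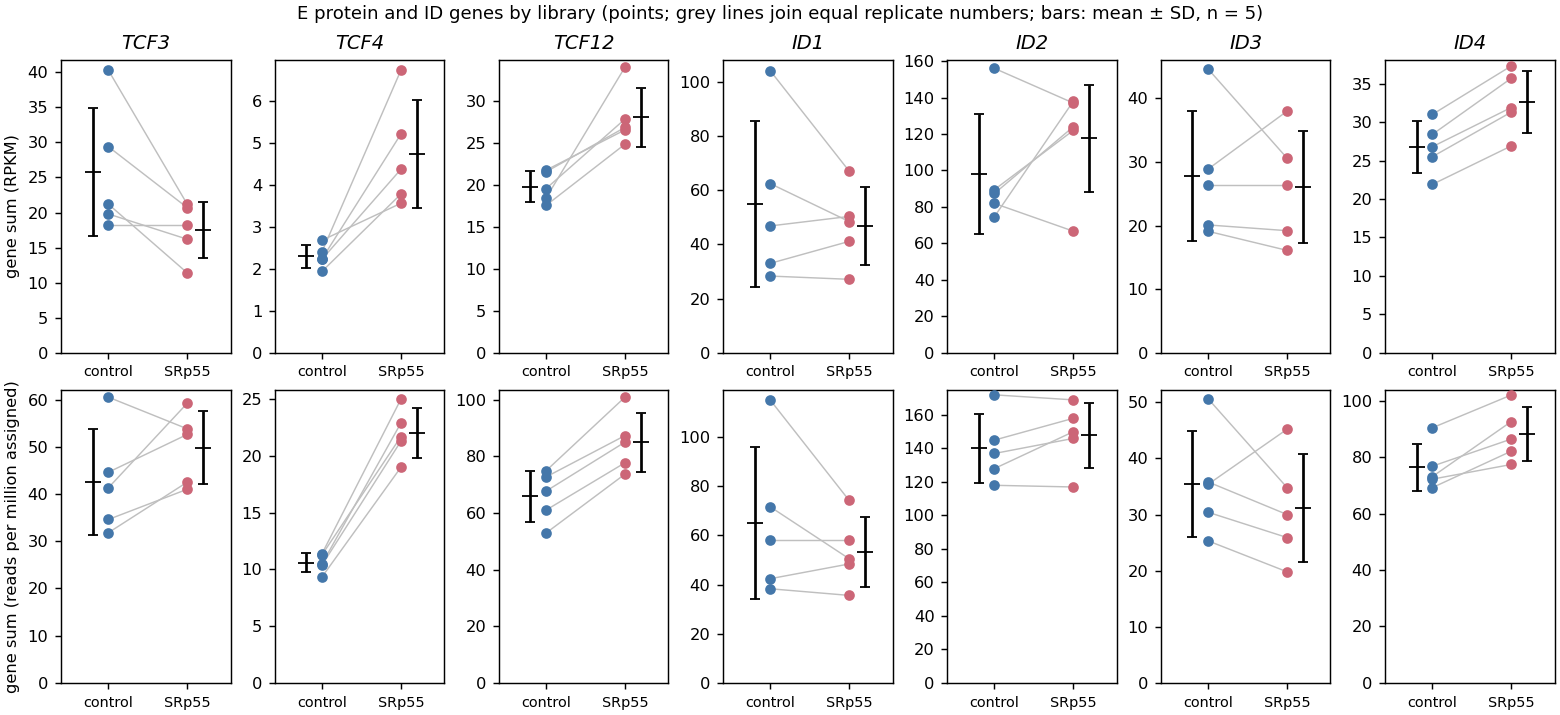
Gene sums of the 7 genes by library, in RPKM (top) and RPM (bottom), with grey lines between equal replicate numbers and bars for the mean ± SD (n = 5). TCF4 separates in both rows, TCF12 in RPKM only, and the TCF3 mean is lower in the top row (25.8 to 17.5) and higher in the bottom row (42.6 to 49.8).

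Transcript usage of TCF4, TCF12 and the ID genes was compared in the same way as for all genes, with limma's diffSplice on transcripts that averaged 0.5 RPKM or more and 5% of the gene's RPKM. Across 9915 genes, 34 (0.343%) passed an adjusted p of 0.05 with a shift of 10 points or more. TCF4, TCF12, ID2 and ID3 did not pass in limma, by RPKM or by estimated reads. For TCF4 only 2 of 48 transcripts reached both minimums, so most of its transcripts were outside that test. ID1 and ID4 had 1 transcript past the minimums and could not be tested.

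The estimates for most named TCF4 transcripts were scattered between libraries of one group. Of its 48 transcripts, 28 were at 0 in every library. ENST00000543082, which starts inside the gene, took 20.5% of TCF4 RPKM in control replicate 1 and 64% in control replicate 3 and was listed at 0 in the other 8 libraries. ENST00000457482 took 47.2% in control replicate 4 and between 0 and 4.48% in every other library. ENST00000568673 had a mean share of 9.96% ± 9.45 in control and 20.4% ± 13.2 with SRp55 siRNA (SD, n = 5), and the groups overlapped.

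The shares of ENST00000356073, at 11.8% ± 11 and 19% ± 16.7, and of ENST00000564403, at 14.1% ± 15.1 and 11.5% ± 15.7, overlapped as well. ENST00000566286 was different: it took 4.72%, 0%, 3.41%, 2.32% and 4.54% of TCF4 RPKM in control and 7.13%, 18.5%, 7.10%, 9.32% and 7.99% with SRp55 siRNA, with no overlap. By estimated reads its share was 0 to 2.75% and 3.63% to 9.29%, again apart. It was below the level minimum and was not tested.

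Transcripts of TCF4, TCF12, ID2 and ID3 were also grouped by shared 5′ end, annotated class and internal exon, which gave 41 shares. None had an adjusted p under 0.05 in the exact two-sided permutation test, and 1 had an unadjusted p under 0.05. It was an internal TCF4 exon at GRCh38 chr18:55257315-55257391, held by transcripts with 95.3%, 100%, 96.6%, 97.7% and 95.4% of TCF4 RPKM in control and 87%, 81.5%, 54.3%, 89% and 86.4% in SRp55 siRNA libraries. The groups did not overlap (exact permutation p = 0.00794, the smallest that 5 against 5 libraries can give, adjusted p = 0.325 over 41 shares). At that smallest p a lone share among 41 cannot pass after adjustment. The difference was -17.4 points, and -11.0 points without SRp55 siRNA replicate 3, the lowest library. In control libraries the remaining share was that of ENST00000566286, so this separation and the one given above for that transcript are not independent. In SRp55 siRNA replicate 3, short transcripts were also outside this share, such as ENST00000566514 (843 bases, 8.99%) and ENST00000569357 (578 bases, 8.56%). So were ENST00000565908 (752 bases, 5.86%) in replicate 1 and ENST00000566376 (463 bases, 1.69%) in replicate 4. Only matched structures with an exon of exactly these coordinates counted as holding it. The unmatched ENST00000565018 (5.60% in replicate 5) and ENST00000563888 (6.03% in replicate 3) therefore counted as lacking it. Whether the spans of these transcripts reach the exon was not examined, so the share does not measure skipping of the exon.

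TCF12 had 29 transcripts in the files, and those with the largest share varied between libraries of one group. ENST00000560190 took 44.3% of TCF12 RPKM in control replicate 2, 25.8% in control replicate 5 and 36.9% in SRp55 siRNA replicate 1, and was at 15.2% or less elsewhere. The long coding transcript ENST00000438423 had a mean share of 16.8% ± 8.39 in control and 13.3% ± 7.0 with SRp55 siRNA. ENST00000333725 had 6.41% ± 5.88 and 12.7% ± 8.25, and ENST00000557947 10.3% ± 4.48 and 11.9% ± 2.49 (SD, n = 5), all with overlapping groups.

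**Figure D4:**
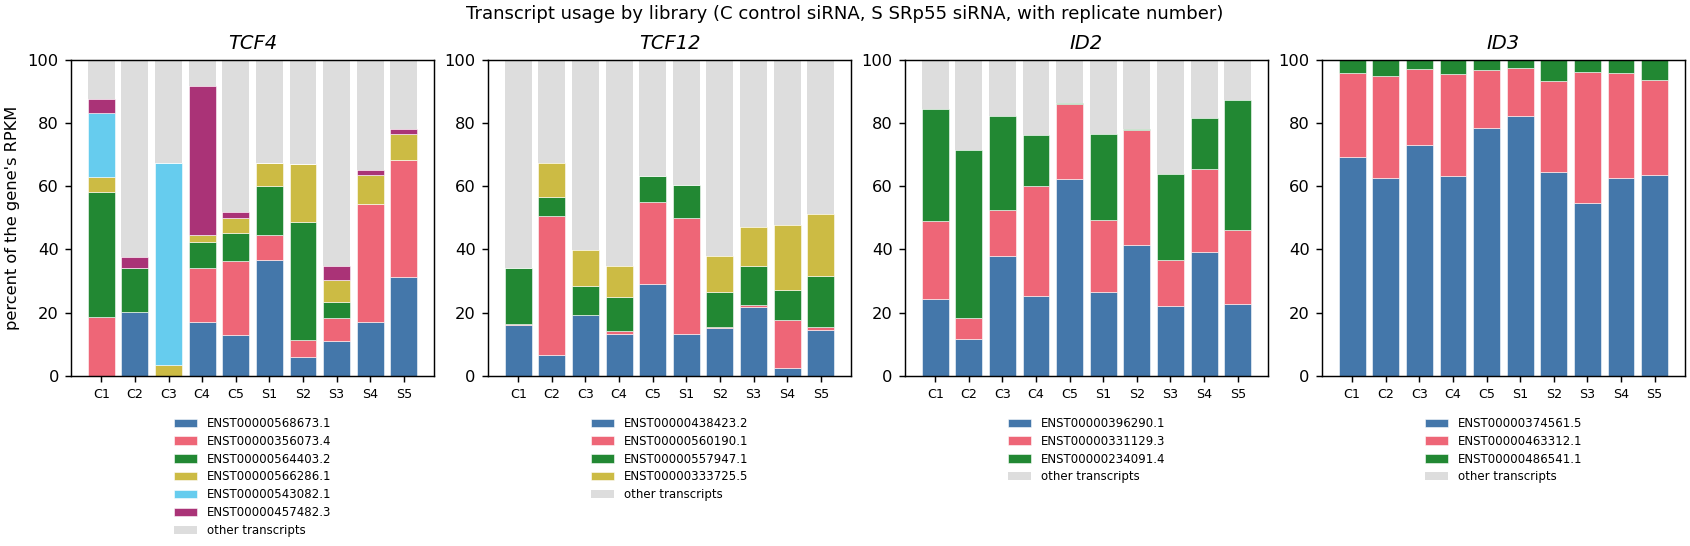
Share of each gene's RPKM held by its named transcripts in each library, for TCF4, TCF12, ID2 and ID3, with the other transcripts in grey. TCF4 and TCF12 vary within both groups, as for ENST00000560190 of TCF12 at 44.3% in control replicate 2 and 36.9% in SRp55 siRNA replicate 1.

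By control mean RPKM the ID genes ranked above the E protein genes, with ID3 (27.8) and ID4 (26.7) close to TCF3 (25.8). That order did not hold in control RPM, where ID3 (35.5) was below TCF3 (42.6) and TCF12 (65.9). ID2 (ENSG00000115738, GRCh37 chr2:8818975-8824583, plus strand), the ID factor known for its role in innate lymphoid cells, led all 7 with 97.9 ± 33.0 RPKM in control (SD, n = 5). It was at 87.4, 74.7, 89.5, 156 and 81.9 RPKM in control and 124, 138, 122, 137 and 66.7 RPKM after SRp55 siRNA. SRp55 siRNA replicates 1 to 4 lay between 122 and 138, with replicate 5 far below them, while control replicate 4 lay above all others. Its transcripts ENST00000396290, ENST00000234091 and ENST00000331129 held 32.3% ± 19.2, 27.0% ± 20.1 and 20.9% ± 10.8 of its RPKM in control and 30.4% ± 9.29, 22.4% ± 15.2 and 24.8% ± 7.82 with SRp55 siRNA. ID2 did not pass in limma, with a log2 fold change of 0.16 (95% interval -0.37 to 0.69, adjusted p = 0.56).

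ID1 (ENSG00000125968, GRCh37 chr20:30193086-30194318, plus strand), a known target of BMP signalling through SMAD proteins, was at 62.4, 33.0, 46.8, 104 and 28.3 RPKM in control. With SRp55 siRNA it was at 48.4, 41.1, 50.3, 67.0 and 27.1 RPKM. Replicates 4 and 5 were the highest and lowest library in both groups, and the groups overlapped almost fully. ENST00000376112 held 96.9% ± 1.0 and 96.1% ± 1.78 of ID1 RPKM, and ENST00000376105 the rest. The log2 fold change was -0.24 (95% interval -0.99 to 0.52, limma, adjusted p = 0.87).

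ID3 (ENSG00000117318, GRCh37 chr1:23884409-23886285, minus strand), which shares BMP responsiveness with ID1, was at 28.9, 19.1, 26.4, 44.6 and 20.1 RPKM in control and 38.0, 16.1, 26.4, 30.6 and 19.2 RPKM after SRp55 siRNA. The groups overlapped, and 1 of 5 pairs was higher with SRp55 siRNA. ENST00000374561 held 69.3% ± 6.65 and 65.6% ± 10.1 of ID3 RPKM, ENST00000463312 26.8% ± 5.87 and 29.7% ± 9.52, and ENST00000486541 3.84% ± 0.936 and 4.66% ± 1.70. Its log2 fold change was -0.20 (95% interval -0.80 to 0.40, limma, adjusted p = 0.88). The intervals of ID1, ID2 and ID3 span changes in both directions.

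ID4 (ENSG00000172201, GRCh37 chr6:19837617-19840915, plus strand), the ID family member known for its expression in neural precursors, had 1 transcript in the files, ENST00000378700. It was at 26.8, 25.5, 31.0, 28.4 and 21.9 RPKM in control and 31.9, 31.3, 37.3, 35.7 and 26.9 RPKM after SRp55 siRNA. The groups overlapped, but the SRp55 siRNA library was higher in 5 of 5 pairs. The log2 fold change of 0.18 (95% interval -0.10 to 0.45) did not pass in limma (adjusted p = 0.21), and passed with the replicate number as a block (adjusted p = 0.029).

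**Figure D5:**
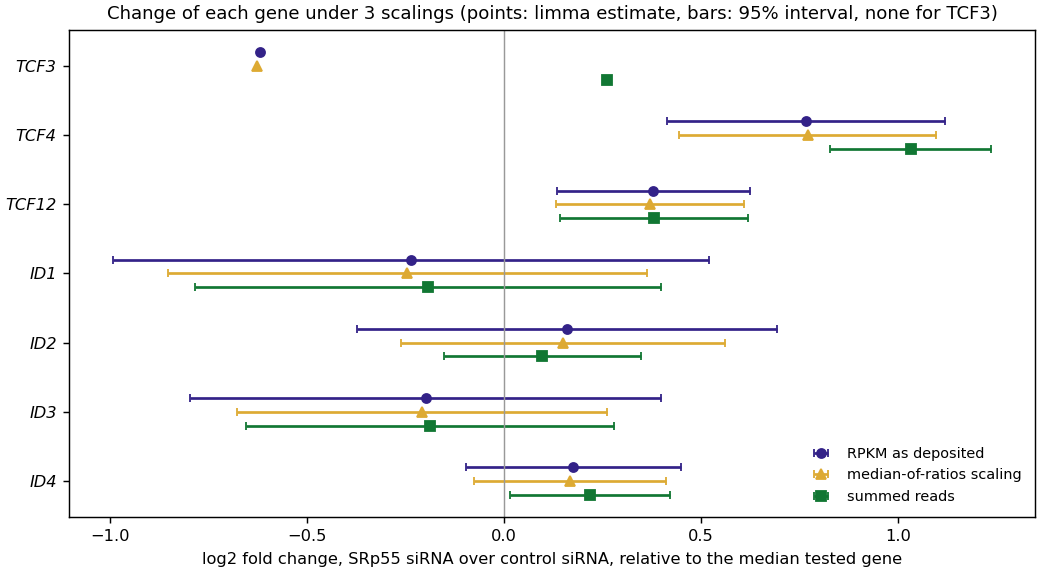
Log2 fold change of each gene, SRp55 siRNA over control siRNA, relative to the median tested gene, for RPKM as deposited, median-of-ratios scaling and summed reads, with 95% intervals from limma (n = 5 per group) for all but TCF3, which is shown as values only. TCF3 lies at -0.62 by RPKM and 0.26 by reads, TCF4 and TCF12 lie above 0 on all 3 scales, and the intervals of ID1, ID2 and ID3 cross 0.

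Per length, the order of control means ran from ID2 (97.9 RPKM) through ID1 (55.0), ID3 (27.8), ID4 (26.7), TCF3 (25.8) and TCF12 (19.8) to TCF4 (2.30). The ranges of neighbours overlapped over the libraries except for TCF4, which lay below all others. In the SRp55 siRNA group the order was ID2 (117), ID1 (46.8), ID4 (32.6), TCF12 (28.1), ID3 (26.1), TCF3 (17.5) and TCF4 (4.73), and TCF4 was again apart.

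Summed over TCF3, TCF4 and TCF12, the E proteins were at 47.9 ± 10.3 RPKM in control and 50.4 ± 6.43 RPKM after SRp55 siRNA (SD, n = 5), with overlapping ranges. The 4 ID genes summed to 207 ± 74.2 and 223 ± 49.2 RPKM, also overlapping. The ratio of ID to E protein RPKM was 4.26 ± 0.738 and 4.47 ± 1.06. Without the TCF3 transcripts that hold both exons, the E protein sum was 24.4 to 32.4 RPKM in control and 42.1 to 59.5 RPKM with SRp55 siRNA, and the ratio of ID to E protein RPKM was 7.40 ± 2.03 and 4.60 ± 1.07. The E protein sum then separated between the groups, while the ratio still overlapped, at 5.26 to 10.3 against 3.00 to 5.60. TCF3 was taken for the change in its transcripts, and its remainder in this sum was 5.65 ± 1.45 and 16.0 ± 3.41 RPKM. The separation therefore rests in part on that choice and was not tested.

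The partners and regulators of these proteins were read from 7 lists. Of the 89 genes of these lists tested by RPKM, 5 rose and 1 fell, beside the background of 3.76% higher and 1.25% lower, and by summed reads 7 rose and 11 fell, beside 7.30% and 9.87%. Of 9 class II bHLH factors tested, 1 rose and 0 fell, with a median log2 fold change of 0.03. NEUROG3, the factor that starts endocrine differentiation, went from 3.22 ± 0.585 to 5.01 ± 0.609 RPKM and rose by 0.47 (limma, adjusted p = 0.040). It passed without control replicate 4 or SRp55 siRNA replicate 5, missed in the other 8 fits that left out 1 library, and reached an adjusted p of 0.095 at most. NEUROG3 passed with the replicate block (limma, adjusted p = 0.011) and just missed without the minimum of 0.5 RPKM (limma, adjusted p = 0.051).

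NEUROD1, the beta cell partner of E47, was at 54.6, 59.5, 65.5, 67.9 and 65.4 RPKM in control and 75.1, 77.4, 86.3, 84.3 and 86.5 RPKM after SRp55 siRNA. The groups did not overlap, and the limma test just missed at a log2 fold change of 0.28 (adjusted p = 0.052), with 0.016 under the replicate block and 0.038 without control replicate 4. It was 0.22 under median-of-ratios scaling, 0.059 by summed reads and at most 0.13 without another library.

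Of 5 HES, HEY and BHLHE40/41 repressors tested, 1 rose and 0 fell, and their median log2 fold change was 0.05. HES6, a HES family member known to counter HES1, was at 66.4, 43.9, 47.9, 74.8 and 50.8 RPKM in control and 206, 87.8, 88.0, 124 and 97.2 RPKM after SRp55 siRNA. The groups did not overlap, and SRp55 siRNA replicate 1 was the highest. HES6 rose by 0.92 on the log2 scale (limma, adjusted p = 0.039). It passed without control replicate 4, SRp55 siRNA replicate 1 or SRp55 siRNA replicate 5, and missed in the other 7 fits that left out 1 library, with an adjusted p of at most 0.096. HES6 passed with the replicate block (limma, adjusted p = 0.013) and missed without the minimum of 0.5 RPKM (limma, adjusted p = 0.059).

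Among 21 cofactors of E proteins, such as acetyltransferases, the ETO family and LIM-only bridging proteins, 1 rose and 1 fell, with a median of -0.04. The members that passed were both LIM-only genes. LMO3 rose from 0.741 ± 0.498 to 2.34 ± 0.401 RPKM (log2 1.15, limma, adjusted p = 0.0099), a call that held in all 17 alternatives. LMO2, which bridges E proteins and TAL1 in blood cells, fell from 9.07 ± 1.11 to 5.92 ± 0.856 RPKM (log2 -0.69, limma, adjusted p = 0.027). The LMO2 call was kept with the replicate block (limma, adjusted p = 0.013). It was also kept without control replicate 3 or 4 or SRp55 siRNA replicate 1 or 5. In the other 6 fits that left out 1 library it was lost (adjusted p up to 0.074).

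BMP signalling genes, upstream of ID1 and ID3, gave 0 called of 26 tested by RPKM, with a median of -0.04, and 1 higher and 6 lower by summed reads, on the background given above, and with the replicate block 2 were higher and 2 lower. With median-of-ratios scaling 0 were higher and 1 lower. By RPKM, 5 of the 26 had an unadjusted p under 0.05 in limma, beside 2986 of all 13630 tested genes, a similar share. Among the 5, the inhibitory SMAD gene SMAD7 was at 3.23 ± 0.907 and 1.91 ± 0.943 RPKM. The ligand gene BMP2 was at 3.04 ± 0.610 and 2.06 ± 0.393 RPKM, and both were named after their values were seen. Their adjusted p in limma was 0.13 for SMAD7 and 0.10 for BMP2.

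Of 11 genes for E protein and ID turnover and calmodulin, 1 rose and 0 fell, with a median of 0.19. SKP2, a ubiquitin ligase subunit, rose from 24.7 ± 2.22 to 33.2 ± 2.78 RPKM (log2 0.31, limma, adjusted p = 0.041). The SKP2 call was lost by summed reads (limma, adjusted p = 0.13) and under median-of-ratios scaling (adjusted p = 0.17), and was kept with the replicate block (adjusted p = 0.025). It was kept without control replicate 4 or SRp55 siRNA replicate 1, and lost in the other 8 fits that left out 1 library.

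Of 13 targets of E proteins and endocrine bHLH factors, 1 rose and 0 fell, with a median of 0.13. By summed reads 2 rose and 2 fell, under median-of-ratios scaling 2 rose and 0 fell, and with the replicate block or without control replicate 4 in turn 4 rose and 0 fell. PAX4, an endocrine factor downstream of NEUROG3, rose from 0.451 ± 0.0940 to 1.29 ± 0.140 RPKM (log2 0.80, limma, adjusted p = 0.0024) in all 17 alternatives. Its control mean was below the minimum of 0.5 RPKM, so PAX4 entered the test only through its higher SRp55 siRNA values. Without that minimum its adjusted p in limma was 0.0026. At this low level the size of the change depends on the pseudocount: log2 0.55 with 1 and 1.23 with 0.1. CDH1, the E-cadherin gene that E proteins are known to repress, was at 48.4 to 58.6 RPKM in control and 59.8 to 78.7 RPKM with SRp55 siRNA, with a log2 fold change of 0.22 (limma, adjusted p = 0.11) and an adjusted p of 0.034 under the replicate block. The CDH1 adjusted p was 0.17 under median-of-ratios scaling, 0.13 by summed reads and up to 0.23 with 1 library left out.

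The 5 known regulators of the choice between exons 18a and 18b were hnRNP H and F and the PTB proteins. They gave 0 called in limma and 1 with an unadjusted p under 0.05, with a median log2 fold change of -0.03. By summed reads 1 was called lower, and 1 with median-of-ratios scaling. Of all 13630 tested genes, 2986 had an unadjusted p under 0.05 in limma, a similar share. HNRNPH2, the regulator with an unadjusted p under 0.05, was at 53.2 ± 4.81 and 39.4 ± 5.77 RPKM. Its adjusted p was 0.075 in limma, and it was named after its values were seen. Of the 10 beta cell markers 1 rose, SLC30A8, a zinc transporter of insulin granules, from 77.3 ± 11.4 to 172 ± 24.6 RPKM (log2 1.04, limma, adjusted p = 0.0025), and 0 fell. By summed reads 1 rose and 2 fell, and the block fit gave 2 higher and 3 lower. By RPKM, 6 of the 10 had an unadjusted p under 0.05 in limma, beside the 2986 of 13630 genes above. The beta cell factor gene PDX1 was at 89.1 to 110 and 72.4 to 87.9 RPKM, without overlap (log2 -0.44, limma, adjusted p = 0.10). NKX6-1 was at 23.5 ± 6.87 and 15.4 ± 4.76 RPKM (log2 -0.71, adjusted p = 0.20) and IAPP, the amyloid peptide gene, at 34.9 ± 13.7 and 17 ± 9.52 RPKM (log2 -1.21, adjusted p = 0.12), all 3 named after their values were seen.

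Within groups, the 7 genes varied together to different degrees across the 10 libraries once group means were taken out, on the scale of log2(RPKM + 0.5). ID1 went with ID2 (r = 0.84) and ID3 (r = 0.82), and TCF3 with ID3 (r = 0.85) and ID1 (r = 0.73), while TCF4 and TCF12 were at r = 0. These are descriptions over libraries that differ in depth and whose equal numbers were taken as pairs. Control replicate 4, the highest for TCF3, ID1, ID2 and ID3, had 159.2 M assigned reads, the most in its group. Control replicate 5, the lowest of its group for TCF3 and ID1, had 135 M. A link to depth was not tested. The protein-coding genes with the most alike pattern were NPHP4, SELENOO and ERCC2 for TCF3 (r = 0.96 each) and AKR1C2 for TCF4 (r = 0.95). They were FAM228B for TCF12 (r = 0.97), FRG1 for ID1 (r = 0.99), WDR76 for ID2 (r = 0.98), FRAT1 for ID3 (r = 0.97) and ITPRID2 for ID4 (r = 0.98). These r values are the highest from a search over all tested protein-coding genes with 10 libraries. Such a search can give high values without any relation between the genes.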

How the data were processed

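The deposited files list 155130 transcripts of 26346 genes per library with a GRCh37 span, a spliced length, estimated read counts and RPKM, all made by the authors. The alignment used TopHat and the build GRCh37 (hg19), per the submitters' processing notes. The assigning program, the annotation release and any strand setting were not given in the sources used here. No other gene in the files overlaps one of the 7. Transcript values were summed per gene. Genes averaging 0.5 RPKM or more were tested with limma 3.58.1 (R 4.3.3, trend and robust) on log2(RPKM + 0.5), with Benjamini-Hochberg adjustment over all tested genes at 0.05. Fold changes on this scale understate changes of low genes. The adjusted p tests the change as deposited, and fold changes are printed relative to the median tested gene. The estimated counts were fractional and share a text field with RPKM, so a count model was not run, and their sums, scaled per 1000000 assigned reads (RPM), served as an alternative. The fits were tested on simulated data.

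The files hold no exons. Exons came from GENCODE 44 (GRCh38) by transcript identifier, and a structure was accepted where the intronic total in the file equalled that of the GENCODE exon chain or of a run of its neighbouring exons. This held for 11 of 18 TCF3, 42 of 48 TCF4 and 28 of 29 TCF12 transcripts and for every ID transcript. The E47 transcript ENST00000344749 has no GENCODE 44 entry and was assigned to E47: beyond its 5′ end it differs from ENST00000262965 by 9 bases, as the coding parts of E12 and E47 do.

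The members, lists and tests were chosen with earlier results of these data known. The genes named are the 7 members, SRSF6, NEUROD1, NEUROG3, CDH1 and, per list, at most 4 called genes taken by smallest adjusted p, and the text marks SMAD7, BMP2, HNRNPH2, PDX1, NKX6-1 and IAPP as named after their values were seen. The transcripts named are the 3 with most RPKM per gene and those with at least 5% mean usage that moved by 5 points or more. One other gene of that rule and 1 exon sequence are not reported here. Internal exons, 5′ ends within 1000 bases and annotated classes defined the structure shares. Equal replicate numbers were taken as pairs for the block, since the series describes independent preparations exposed to either siRNA, deviations of equal numbers correlated (r 0.13 to 0.41) and those of different numbers reached at most 0.12, and all 10 libraries correlated best with their own number. The p-values measure the spread between these preparations of 1 cell line. Library totals were 61.9 to 189.8 M assigned reads. Alternatives were median-of-ratios scaling, summed reads, pseudocounts of 0.1 and 1, no filter, the replicate block and leaving out each library.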

Additional observations from a re-analysis of the deposited data

Results flagged for a closer look

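A library far from the other 4 of its group was found in 3 of 40 groups of values examined, and chance flags about 1 in 20 groups. Control replicate 4 was far above its group for ID2 at 156 RPKM, and SRp55 siRNA replicate 5 was far below its group for ID2 at 66.7 RPKM. Control replicate 5 had the lowest share of TCF3 reads in transcripts with both exons, at 41.1%, apart from the other control libraries at 58.2% to 61.6%.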

How the results depend on the processing

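The count of 684 genes called became 2340 with summed reads, 1784 with the replicate block, 4953 with both (an alternative chosen after seeing the data), and 259 to 1083 when 1 library was left out, with 919 under median-of-ratios scaling. Of the 684, 612 were also called by summed reads, 511 with median-of-ratios scaling and 663 with the block. The 34 genes with changed transcript usage became 52 by estimated reads, stayed 34 with the replicate block, and were 24 to 52 when 1 library was left out. The 6 called members of the 7 partner and regulator lists, of 89 tested (5 higher, 1 lower), became 18 with summed reads (7 higher, 11 lower), 15 with the replicate block (11 and 4), 34 with both (15 and 19), and 2 to 10 when 1 library was left out. The count of 0 structure shares past the threshold was also 0 in each alternative run, which says nothing of stability: a lone share among 41 cannot pass at the smallest exact p, and within the pairs of the replicate block the smallest p is 0.0625. The difference in the TCF3 share of transcripts with both exons was -69.3 points by RPKM and -53.2 by estimated reads, and -71.9 to -67.3 when 1 library was left out, alternatives also added after seeing the data. The E12 share difference stayed within the control SD of 21.3 points of its value of -2.49 points in each alternative, between -9.25 and 4.58. The log2 fold change of TCF3 was -0.62 by RPKM and reversed to 0.26 with summed reads and to 0.26 with summed reads and the replicate block: the reads are not divided by transcript length. TCF4 kept its call in 17 of 17 alternatives and TCF12 in 8 of 17, while ID1, ID2 and ID3 passed in 0 and ID4 in 2, both with the block. TCF4 could not be fitted for transcript usage without SRp55 siRNA replicate 1, 4 or 5, where fewer than 2 of its transcripts passed the minimums of 0.5 RPKM and 5% usage.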
